A study of Mus musculus with 4 samples.

Results

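The genes Mbp, Mog, Mag, Mobp, Cnp, Cldn11, Mal, Ugt8a and Opalin encode proteins of myelin and of the oligodendrocyte, the cell that makes it. They were chosen by symbol as genes of mature oligodendrocytes, and all 9 of the 9 listed were among the 12700 genes of the count table. Each was read in every one of 4 RNA-seq libraries, and its level is given in RPM (reads per 1000000 aligned reads of the library).

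Oligodendrocytes wrap axons in layers of their own plasma membrane. Most of this membrane is compacted, with the cytoplasm squeezed out and the leaflets held together by proteins such as myelin basic protein, while the innermost and outermost loops keep cytoplasm and carry adhesion molecules that face the axon or the outside. Myelin is rich in galactolipids, and fibre tracts, brainstem and thalamus hold more of it than the cortical grey matter.

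The mice were C57BL/6, 9 months old, and either wild type (WT) or Ids-/- (Ids-ko, labelled H), a model of Hunter syndrome (mucopolysaccharidosis type II) that lacks iduronate 2-sulfatase, a lysosomal enzyme that degrades heparan and dermatan sulfate. The cerebral cortex (Cx) and an area holding midbrain, diencephalon and hippocampus (M) were sequenced from polyA RNA, and each of the resulting libraries (CxH, CxWT, MH and MWT) was a pool of RNA from 7 mice. There was thus 1 library per condition, and a ratio of 2 libraries has no replicate check. Between 16380080 and 23475080 reads fell on genes in each library, and a count of 0 allowed a level of up to 0.0779 to 0.104 RPM (3 reads).

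Some library labels went against the data, which touches every comparison below. Ids, the targeted gene on chromosome X, had 135 RPM in the library labelled CxH and 368 in that labelled MH, and 354 in CxWT and 155 in MWT. It was therefore low in one library labelled H and in one labelled WT, and the library labelled MH held the most. The 15 genes listed for cortical excitatory neurons summed to 2225 RPM in CxH and 2059 in MH but only 393 in CxWT and 336 in MWT. The 16 analysed genes of the midbrain and diencephalon list (19 listed) summed to 597 RPM in CxWT and 517 in MWT, against 41.7 in CxH and 55.3 in MH. Slc17a7, the vesicular glutamate transporter of cortical neurons, stood at 1359 RPM in CxH and 1240 in MH, against 152 in CxWT and 108 in MWT, and Slc6a3, the dopamine transporter, at 0.416 and 0.509 against 56.4 and 49.7. By these lists the library labelled MH was like that labelled CxH, and the library labelled CxWT was like that labelled MWT. No library was relabelled, the labels are used here only as names of libraries, and the names H and WT stand for labels. Since the area markers split the libraries in the same way as the H and WT labels, genotype as labelled and brain area cannot be told apart in a comparison of H with WT libraries.

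The positions of 8 of the members are given on mm9 (NCBI37) with the GENCODE vM1 annotation. Mog is at chr17:37147691-37160343, Mag at chr7:31684202-31699851, Mobp at chr9:120058860-120090602, Cnp at chr11:100436218-100453043, Cldn11 at chr3:31048868-31063246, Mal at chr2:127458962-127482431, Ugt8a at chr3:125568277-125641468 and Opalin at chr19:41136964-41151603. The counts are per gene, so isoforms were not separated. Exons of 8 members overlapped no exon of another annotated gene. Those of Cnp shared 154 bases with Dnajc7 on the opposite strand, and since the sources used here do not state that strand was used in the counting, reads there may belong to either gene.

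The promoter windows of 4 members are shown because they hold the letters recognised by factors of the lineage. MYRF and SOX10 are transcription factors of oligodendrocytes known to act on myelin genes. In the 250 bases before each annotated start (RefSeq, GRCm38.p6), CTGGCAC or CTGGTAC, a short form of the MYRF motif, and ACAAAG, a core of the SOX motif, were searched on both strands. Windows were given for 8 of the 9 members, and a window for Mbp was not used here. Capitals mark the matches, on either strand, and each window reads 5′ to 3′ on the strand of the gene. The windows are chr7:30914923-30915172 (minus strand) for Mag, chr11:100574689-100574938 (plus) for Cnp, chr17:37023399-37023648 (minus) for Mog and chr9:120149492-120149741 (plus) for Mobp.
Mag: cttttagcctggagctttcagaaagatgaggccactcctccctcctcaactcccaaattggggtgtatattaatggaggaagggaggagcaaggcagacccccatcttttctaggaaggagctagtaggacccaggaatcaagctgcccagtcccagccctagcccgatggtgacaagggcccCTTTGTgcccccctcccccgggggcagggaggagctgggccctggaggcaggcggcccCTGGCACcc
Cnp: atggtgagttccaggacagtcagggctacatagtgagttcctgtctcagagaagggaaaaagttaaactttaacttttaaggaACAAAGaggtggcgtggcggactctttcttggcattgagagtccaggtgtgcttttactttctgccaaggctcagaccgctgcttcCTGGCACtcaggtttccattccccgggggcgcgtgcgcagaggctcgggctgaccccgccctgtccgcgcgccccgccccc
Mog: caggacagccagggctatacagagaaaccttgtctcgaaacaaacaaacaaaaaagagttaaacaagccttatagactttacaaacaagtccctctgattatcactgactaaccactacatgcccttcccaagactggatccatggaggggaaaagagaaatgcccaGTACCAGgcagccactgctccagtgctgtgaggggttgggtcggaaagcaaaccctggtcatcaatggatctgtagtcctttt
Mobp: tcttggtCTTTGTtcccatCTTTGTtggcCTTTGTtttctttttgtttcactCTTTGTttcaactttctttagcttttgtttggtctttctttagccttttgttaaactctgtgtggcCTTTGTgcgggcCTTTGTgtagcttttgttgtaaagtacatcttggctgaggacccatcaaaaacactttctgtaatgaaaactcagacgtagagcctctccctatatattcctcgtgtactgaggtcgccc
The 8 members had 10 windows, since Mag had 3 annotated starts, and 1 window of Mag held neither motif. The other windows of Mag overlapped and held the same matches, which are thus counted once in each. The MYRF letters were found for Mag, Cnp and Mog, in 4 of the 10 windows, and in 5.93% of all 32851 windows of this length. The match began 9 bases before the start in the window shown for Mag, 81 before it for Cnp and 83 before it for Mog. The SOX letters were found for Mag, Mobp, Cnp and Opalin, in 5 of the 10, and in 16.5% of all windows. The window of Mobp held 6 copies, a number reached by 1 of the 32851 windows. No match of one motif overlapped one of the other. These are matches of letters and not shown to be bound sites, and Mal, Cldn11 and Ugt8a, whose windows held neither motif, are described below with the same measures as the rest.

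Scaled to aligned reads, the sum over the 9 genes was lower in both libraries labelled H than in both labelled WT. The sum was 4118 RPM in CxH and 4183 in MH, against 7345 in CxWT and 5330 in MWT. As a share of all reads on genes it was 0.675%, 0.708%, 1.22% and 0.942% in the same order. Mbp alone made up most of it, and without Mbp the sums were 1041 RPM in CxH, 1067 in MH, 1858 in CxWT and 1583 in MWT. The libraries labelled H were thus close to each other, and the libraries labelled WT were higher and further apart. In pooled tissue RNA, fewer oligodendrocytes and less myelin RNA per oligodendrocyte cannot be told apart.

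**Figure D1:**
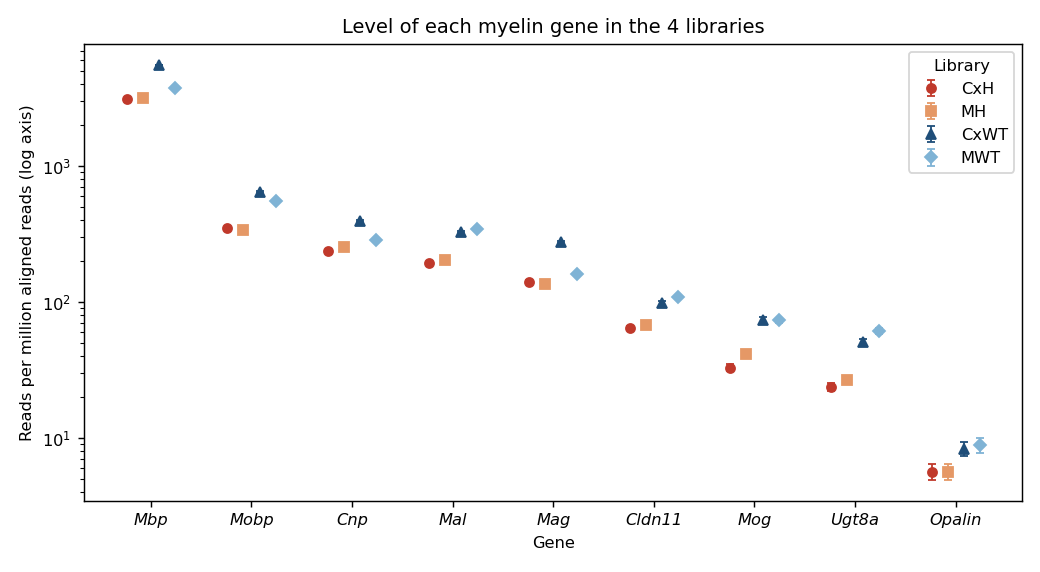
Level of each gene, in RPM on a log axis, in the 4 libraries. Error bars are 95% exact binomial intervals and cover counting error only. For each of the 9 genes, the points of the libraries labelled CxH and MH lie below those of the libraries labelled CxWT and MWT.

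Myelin basic protein (Mbp) binds the cytoplasmic leaflets of compact myelin together, and it had the most reads of the 9 genes. Its level was 3077 RPM in CxH, 3115 in MH, 3746 in MWT and 5487 in CxWT. The highest library was 1.78-fold over the lowest. Mobp, myelin-associated oligodendrocyte basic protein, is another protein of compact myelin. It stood at 336 RPM in MH, 349 in CxH, 551 in MWT and 638 in CxWT. The libraries labelled WT were again on top, with a smaller gap between them than for Mbp. Mal, a raft-associated proteolipid of myelin membrane and its trafficking, measured 191 RPM in CxH, 201 in MH, 325 in CxWT and 341 in MWT. The pair labelled H and the pair labelled WT were each closely spaced for this gene.

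Mag, the myelin-associated glycoprotein, is an adhesion molecule of the inner loop that faces the axon. Its level was 136 RPM in MH, 139 in CxH, 158 in MWT and 275 in CxWT. Here the library labelled CxWT stood apart from the other 3. Cnp, the cyclic nucleotide phosphodiesterase of non-compact myelin, stood at 236 RPM in CxH, 254 in MH, 282 in MWT and 389 in CxWT. CxWT was the highest and MWT the next for both genes, and MWT was nearer to the libraries labelled H than to CxWT.

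Mog, a glycoprotein of the outer myelin surface, stood at 32.7 RPM in CxH, 40.9 in MH, 72.9 in MWT and 73.7 in CxWT. The counting intervals of MWT (69.8 to 76.1) and CxWT (70.9 to 76.7) overlapped, while those of CxH and MH did not. Cldn11, the claudin that forms the tight junctions between myelin layers, measured 64.2 RPM in CxH, 67.6 in MH, 98.4 in CxWT and 108 in MWT. Ugt8a, the ceramide galactosyltransferase that makes galactocerebroside, the main galactolipid of myelin, stood at 23.6 RPM in CxH, 26.4 in MH, 50.8 in CxWT and 60.7 in MWT. It had the widest range of the 9, with the highest library 2.57-fold over the lowest. Opalin, a transmembrane sialoglycoprotein of oligodendrocytes, had the fewest reads, 210 to 279 per library. Its level was 5.62 RPM in MH, 5.64 in CxH, 8.30 in CxWT and 8.78 in MWT. The counting intervals of the libraries labelled H ended at 6.44 and those of the libraries labelled WT began at 7.35, so the pairs were separated at this depth and the libraries within a pair were not.

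Every one of the 9 genes was lower in both libraries labelled H than in both labelled WT, an arrangement that 36.9% of all 12700 genes had. The highest library was CxWT for 5 genes (Mbp, Mog, Mag, Mobp and Cnp) and MWT for 4 (Cldn11, Mal, Ugt8a and Opalin). The lowest was CxH for 6 and MH for 3 (Mag, Mobp and Opalin). Levels of different genes can be compared only per length of transcript. Per kilobase of the longest coding transcript, the order in CxH ran from Mbp with 641 RPM per kb through Mobp (106), Cnp, Mal (68.8), Mag (57.5), Cldn11 (34.8), Mog (19.2) and Ugt8a (6.60) to Opalin with 3.07. In CxWT the same order ran from 1144 for Mbp to 4.52 for Opalin. Mobp and Cnp changed places in MH (102 and 108 RPM per kb), and Mal and Cnp in MWT (123 and 120), and the other neighbours kept their order in all 4 libraries.

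The first comparison asked how the cortex of Ids-ko mice differed from that of wild-type mice, here the library labelled CxH against that labelled CxWT. Calls needed a log2 ratio of 0.7 or more in either direction together with an unadjusted p under 0.05 in a likelihood ratio test on the counts. Since that test compares 2 libraries and not the conditions, no p is given. Mbp, Mog, Mag, Mobp, Cnp, Mal and Ugt8a, 7 of 9, were called lower in CxH, where 11.5% of all genes were. The fall was greatest for Mog, with a log2 ratio of -1.17 ± 0.05 (counting SE), and for Ugt8a, with -1.10 ± 0.06. It was -0.98 ± 0.02 for Mag, -0.87 ± 0.02 for Mobp, -0.83 for Mbp, -0.77 ± 0.02 for Mal and -0.72 ± 0.02 for Cnp. The ratios of Cldn11, -0.62 ± 0.04, and Opalin, -0.56 ± 0.13, did not reach the threshold. With the ratios corrected for GC content and transcript length, Ugt8a, at -0.65, was no longer called, and the lowest ratios were those of Mag (-1.24) and Mog (-1.18). With TMM scaling or DESeq2 size factors, 5 of 9 were called, without Cnp (-0.63 and -0.64) and Mal (-0.67 and -0.68). Of all genes, 8.94% and 9.06% were called lower with these. The median over the members was -0.83, and over all genes -0.09. The libraries differed in their neuronal area markers as described above, and the part of this in the result was not tested.

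The second comparison asked the same of the M area, the library labelled MH against that labelled MWT. Mog, Mobp, Mal and Ugt8a, 4 of 9, were called lower in MH, where 12.7% of all genes were. Their log2 ratios were -0.83 ± 0.05, -0.71 ± 0.02, -0.76 ± 0.02 and -1.20 ± 0.06. Cldn11 (-0.67 ± 0.04) and Opalin (-0.64 ± 0.13) came near the threshold. Mbp (-0.27), Mag (-0.22 ± 0.03) and Cnp (-0.15 ± 0.02) were further from it. The median over the members was -0.67, and over all genes -0.07. With the same correction, Mobp and Ugt8a were the 2 members called. With TMM scaling or DESeq2 size factors, 3 of 9 were called, without Mobp (-0.65 in both), where 10.9% of all genes were called lower in each. With column totals 6 of 9 were called, with Cldn11 (-0.73) and Opalin (-0.70) added, where 14.9% of all genes were. The 4 genes called here were also called in the cortex comparison, and 6.46% of all genes were called lower in both.

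**Figure D2:**
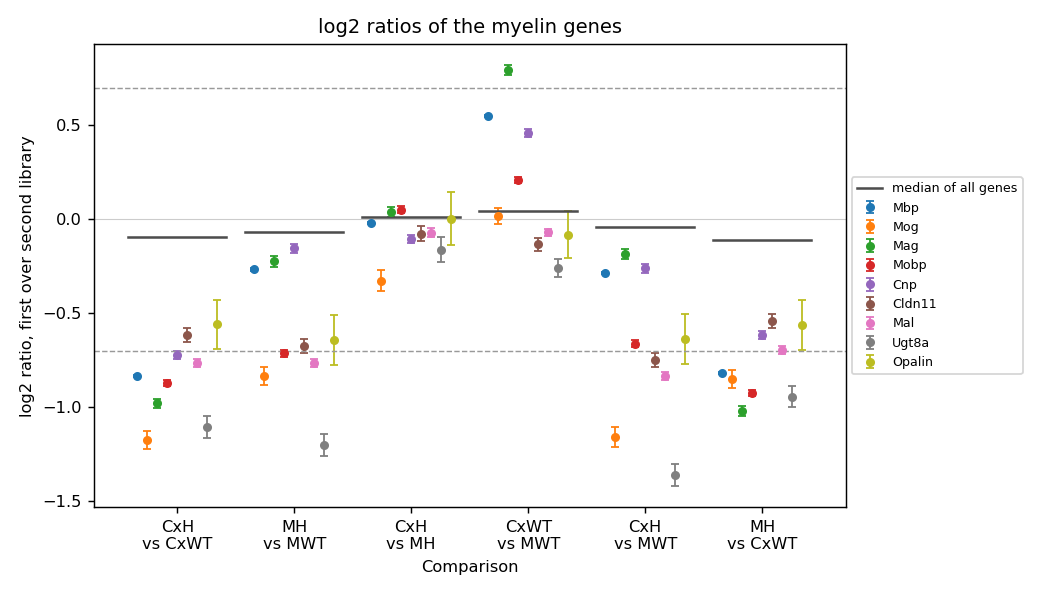
log2 ratio of each of the 9 genes in the 6 pairs of libraries, first library over second; error bars are counting standard errors, short grey bars the median of all genes, and dashed lines the threshold of 0.7 on either side. All 9 points lie below 0 in the 4 pairs of a library labelled H with one labelled WT, and they spread around 0 in CxH vs MH and from -0.26 to 0.80 in CxWT vs MWT.

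The study also compared areas within a genotype. Between the libraries labelled CxH and MH, which shared cortical markers and differed in Ids, 0 of the 9 genes were called, where 3.50% of all genes were called in either direction. The log2 ratios ran from -0.33 ± 0.05 for Mog to 0.05 ± 0.02 for Mobp, with a median of -0.07. Mog and Ugt8a (-0.16 ± 0.07) lay furthest below 0. With the GC and length correction Mog stood at -0.38 and Cnp at -0.26, and Ugt8a turned to 0.14. In this pair Ids had a log2 ratio of -1.44 ± 0.02, so a wide difference in Ids stood beside small differences in the myelin genes. With 1 library a side this bounds nothing about the conditions.

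Between the libraries labelled CxWT and MWT, which shared midbrain and diencephalon markers and also differed in Ids (log2 ratio 1.19 ± 0.03), the members moved apart from each other. Mag, with a log2 ratio of 0.80 ± 0.03, was the 1 member called higher in CxWT, where 5.43% of all genes were. Mbp (0.55) and Cnp (0.46 ± 0.02) were higher by less than the threshold, and Mobp stood at 0.21 ± 0.02. The ratios of Mog (0.02 ± 0.04), Mal (-0.07 ± 0.02), Opalin (-0.08 ± 0.13), Cldn11 (-0.13 ± 0.04) and Ugt8a (-0.26 ± 0.05) lay near 0 or below it. The median was 0.02.

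This order followed the GC content of the transcripts. Mag had the highest GC content, 57.7%, followed by Cnp with 55.8% and Mobp with 53.3%. Ugt8a had the lowest, 39.9%, and the other 5 lay between 47.7% and 51.0%. Over the 9 members, GC content and the CxWT over MWT ratio had a Spearman correlation of 0.85, over the 44 members and other myelin genes with both values 0.762, and over 9721 genes 0.631. These are correlations across genes of the same libraries, given as a description. Mbp and Mag lay above the upper quartile of genes of their GC content, and Cldn11 (-0.13) just below the lower quartile of its own (-0.12). With GC content and length corrected, the ratio of Mag was 0.53, the members ran from 0.02 to 0.53, and none was called. The part of GC content in the result was otherwise not tested.

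**Figure D3:**
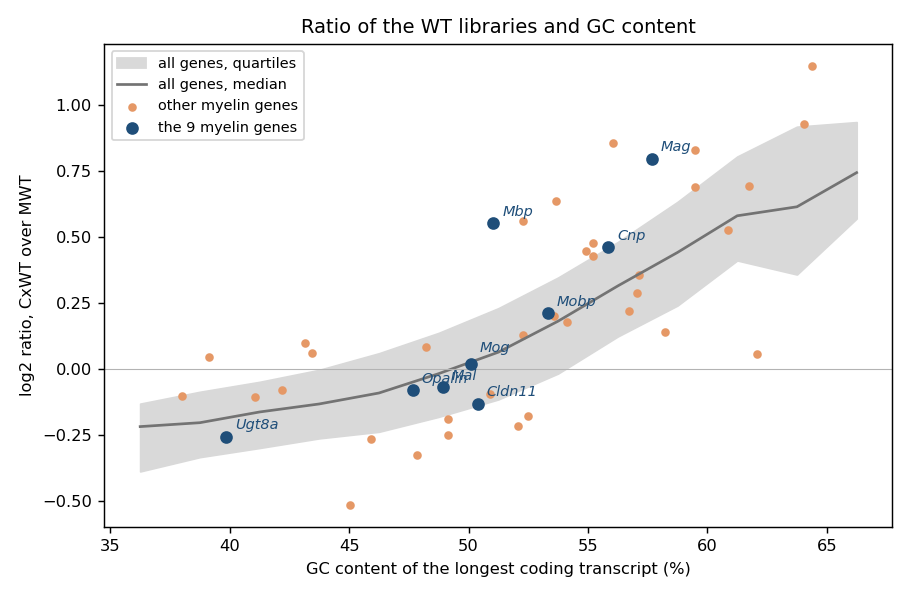
log2 ratio of the library labelled CxWT over that labelled MWT against the GC content (%) of the longest coding transcript, for the 9 genes (large named points), other genes of the myelin list (small points) and all genes (line, median; band, quartiles in GC bins). The named points rise from Ugt8a at 39.9% GC to Mag at 57.7%, as does the median of all genes, with Mbp and Mag above the band and Cldn11 at its lower edge.

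The remaining pairs differ in both labels and were not compared in the study. They share libraries with the pairs above and are no independent support. Between CxH and MWT, both low in Ids, Mog (-1.16 ± 0.05), Cldn11 (-0.75 ± 0.04), Mal (-0.84 ± 0.02) and Ugt8a (-1.36 ± 0.06) were called lower in CxH, 4 of 9, where 15.1% of all genes were. With the GC and length correction Mog stayed called (-0.98), Cldn11 (-0.61), Mal (-0.66) and Ugt8a (-0.62) did not, and Mag (-0.71) and Mobp (-0.86) were called instead. With column totals 6 of 9 were called, with Mobp (-0.77) and Opalin (-0.75) added, where 19.7% of all genes were called lower. Over 9721 genes, GC content and the ratio of this pair had a Spearman correlation of 0.684, the highest of the 6 pairs. Between MH and CxWT, both high in Ids, Mbp (-0.82), Mog (-0.85 ± 0.05), Mag (-1.02 ± 0.03), Mobp (-0.92 ± 0.02) and Ugt8a (-0.94 ± 0.06) were called lower in MH, 5 of 9, where 8.89% of all genes were. Uncorrected, Mog and Ugt8a were called lower in each of the 4 pairs that set a library labelled H against one labelled WT. With the GC and length correction Mog was called in all of them but MH vs MWT (-0.60), and Ugt8a only in MH vs MWT (-0.76) and MH vs CxWT (-0.79).

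With both libraries labelled H against both labelled WT, and area as labelled as a term, edgeR's quasi-likelihood test with Benjamini-Hochberg adjustment could use the spread between libraries, with 1 residual degree of freedom. Each brain gave both areas, so as labelled the libraries of a genotype came from the same pooled mice, and the test has no replicate of separate animals. It called 5 of the 9 genes lower in H, where 9.25% of all genes were called lower and 11.8% higher. Ugt8a had a log2 ratio of -1.08 (adjusted p = 0.00121), Mog -0.93 (adjusted p = 0.00358) and Mobp -0.72 (adjusted p = 0.00904). Mal had -0.69 (adjusted p = 0.0114) and Cldn11 -0.57 (adjusted p = 0.0319). These are genes of galactolipid synthesis, the outer surface, compact myelin and the tight junction. Mbp (-0.47, adjusted p = 0.0669), Mag (-0.53, adjusted p = 0.0831), Opalin (-0.52, adjusted p = 0.129) and Cnp (-0.36, adjusted p = 0.181) did not pass, and Ids had a log2 ratio of 0.01 (adjusted p = 0.996). This count depended on which libraries were in the fit, as did the count over all genes. Fits without 1 library left a lone library on one side and had no area term, so only sizes are given. The median log2 ratio of the members was -0.57 with all 4 libraries. It was -0.59 without CxH, -0.62 without MH, -0.64 without CxWT and -0.73 without MWT, with all 9 members below 0 each time. As the area markers followed the H and WT labels, these calls do not separate genotype from area.

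Of 40 other genes of myelin and oligodendrocytes, 38 were in the table. They summed to 3506 RPM in CxH and 3418 in MH, against 5742 in CxWT and 5970 in MWT. In 29 of the 38 both libraries labelled H lay below both labelled WT, as in 36.9% of all genes. In CxH vs CxWT 14 were called lower (11.5% of all genes) and 0 higher, with a median log2 ratio of -0.53, and in MH vs MWT also 14 lower (12.7% of all genes) and 0 higher, with a median of -0.49. The edgeR test of H against WT called 13 lower, against 9.25% of all genes, and 0 higher. At an unadjusted p under 0.05 it held 21 lower, against 16.3% of all genes, and 0 higher, and DESeq2 with adjustment called 12 lower, against 6.83%, and 0 higher. Trf, transferrin, an iron carrier made by oligodendrocytes, had a log2 ratio of -0.75 (edgeR, adjusted p = 0.0316), and Plekhb1, a pleckstrin homology domain protein, -0.64 (edgeR, adjusted p = 0.0286). Apod, a lipocalin, was at -0.70 (edgeR, adjusted p = 0.0663), Nfasc, an adhesion protein of the node and paranode, at -0.17 (edgeR, adjusted p = 0.498) and Enpp2, the enzyme autotaxin, at 0.18 (edgeR, adjusted p = 0.46). Enpp2 is made also by the choroid plexus.

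Between CxH and MH, Apod was the 1 gene of these 38 called (3.50% of all genes), with 302 RPM in CxH and 169 in MH and a log2 ratio of 0.84 ± 0.02. Between CxWT and MWT, 4 were called, all higher in CxWT (5.43% of all genes). They were Nkx6-2, a homeobox factor of the lineage, with a log2 ratio of 1.15 ± 0.12, Ppp1r14a, a phosphatase inhibitor, with 0.93 ± 0.20, Tmem125, a membrane protein, with 0.85 ± 0.10, and Gal3st1, with 0.83 ± 0.11. Gal3st1 is the sulfotransferase that turns galactocerebroside, the product of Ugt8a, into sulfatide. It did not follow Ugt8a across libraries, with 13.4 RPM in CxH, 10.3 in MH, 16.6 in CxWT and 9.33 in MWT. Its GC content was 59.5%, against 39.9% for Ugt8a.

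Several further genes of the list were looked at after their values had been seen. Ermn, a cytoskeletal protein of the myelin sheath, stood at 39.5 RPM in CxH, 50.7 in MH, 105 in CxWT and 113 in MWT (edgeR, log2 ratio -1.21, adjusted p = 0.000524). Aspa, the aspartoacylase that frees acetate for myelin lipid, stood at 9.71, 15.6, 35.1 and 34.0 RPM in the same order (edgeR, log2 ratio -1.41, adjusted p = 0.000613). Both lay lower in the libraries labelled H. Of 6 transcription factors of the lineage in the list (Myrf, Nkx6-2, Sox10, Olig1, Olig2 and Zfp488) edgeR called 0 and DESeq2 0. Over all genes edgeR called 9.25% lower and 11.8% higher, and DESeq2 called 6.83% lower. Nkx6-2, 1 of the 6, was lower at an unadjusted p under 0.05 in edgeR (16.7%, against 16.3% of all genes). With 6 genes these counts cannot be set apart from the shares of all genes. Between pairs of libraries Nkx6-2 (-1.22 ± 0.11) and Zfp488 (-0.72 ± 0.20) were called lower in CxH vs CxWT (11.5% of all genes), and 0 of the 6 in MH vs MWT (12.7%) or CxH vs MWT (15.1%). In MH vs CxWT (8.89%) Nkx6-2 (-1.38 ± 0.11), Zfp488 (-0.73 ± 0.20) and Olig2 (-0.74 ± 0.07) were called lower. Sox10 stood at 33.7 RPM in CxH, 31.5 in MH, 48.3 in CxWT and 29.8 in MWT (edgeR, log2 ratio -0.15, adjusted p = 0.629). Myrf stood at 59.1, 57.4, 91.7 and 65.2 RPM (edgeR, log2 ratio -0.33, adjusted p = 0.215). For both the library labelled CxWT was the highest, and the level in MWT was near those labelled H.

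**Figure D4:**
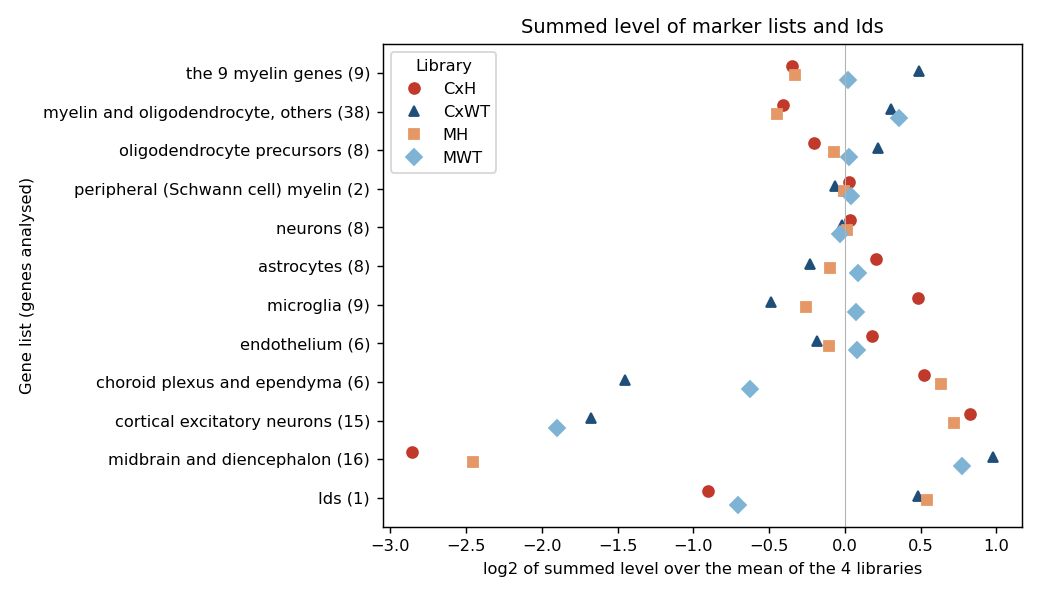
Summed level of each marker list, with the number of genes analysed, and of Ids, as log2 of the level over the mean of the 4 libraries. Both myelin lists are lower in the libraries labelled CxH and MH, the cortical and midbrain lists split the libraries in the same way, and Ids and the microglial list do not.

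The lists of other cell types differed in how they moved, and some genes of them moved as the myelin genes did. Their edgeR counts stand against 9.25% of all genes called lower in H and 11.8% called higher. The 8 analysed genes of oligodendrocyte precursors (10 listed) summed to 159 RPM in CxH, 174 in MH, 213 in CxWT and 187 in MWT. Lhfpl3 alone had 14.5, 22.7, 63.5 and 59.1 RPM of these sums in the same order. The edgeR test called 1 of them lower in H, Lhfpl3 (log2 ratio -1.68, adjusted p = 0.000205), while Pdgfra, the growth factor receptor that defines these cells, was at -0.05 (adjusted p = 0.861) and Tnr at 0.46 (adjusted p = 0.0928). Of 6 genes of peripheral myelin, 2 were analysed, Pmp22 and Drp2, and their sum was between 91.6 and 98.7 RPM. They went opposite ways, with Drp2 called higher in H (edgeR, log2 ratio 0.59, adjusted p = 0.03) and Pmp22 at -0.48 (adjusted p = 0.0932) and called lower in MH vs MWT (-0.80 ± 0.05). The 8 genes of neurons in general, led by Snap25, Syt1 and Eno2, summed to between 3310 and 3460 RPM. Among them, 2 (Stmn2 and Nefm) were lower in both libraries labelled H than in both labelled WT, as the myelin genes were. Another 2 (Syt1 and Rbfox3) were higher in both. The edgeR test called 0 of the 8 lower in H and 1 higher, the neuronal splicing factor Rbfox3 (log2 ratio 1.59, adjusted p = 7.19e-05). Stmn2 was at -0.43 (edgeR, adjusted p = 0.0887) and Nefm at -0.47 (edgeR, adjusted p = 0.0672). Rbfox3, Stmn2 and Nefm were singled out after their values were seen. The 8 astrocyte genes summed to 3970 RPM in CxH, 3212 in MH, 2937 in CxWT and 3660 in MWT, and edgeR called 2 lower in H (Aqp4, log2 ratio -0.98, adjusted p = 0.00318, and S100b, -0.58, adjusted p = 0.0308) and 1 higher (Slc1a2, 0.71, adjusted p = 0.0121). The 9 microglial genes summed to 602, 360, 306 and 452 RPM in the same order, and edgeR called Csf1r (0.58, adjusted p = 0.0382) and Tmem119 (0.71, adjusted p = 0.0161) higher in H. The 6 endothelial genes summed to between 142 and 183 RPM, and Cldn5 was called higher (edgeR, 0.72, adjusted p = 0.0164). Aqp4, S100b, Tmem119 and Cldn5 are named here because they were called, after their values were seen. The 6 genes of choroid plexus and ependyma, led by Ttr, summed to 577 RPM in CxH, 624 in MH, 147 in CxWT and 260 in MWT. Most of this was Ttr, with 537, 583, 113 and 221 RPM in the same order. Of the 6 genes edgeR called 4 higher in H and 2 lower, the latter being Foxj1 (log2 ratio -0.67, adjusted p = 0.0401) and, named after its value was seen, Otx2 (-1.69, adjusted p = 0.000731). The part of these lists in the myelin result was not tested.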

How the data were processed

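PolyA RNA was sequenced on a SOLiD system. The authors aligned the reads to mm9 with PASS 2.10, allowing up to 2 mismatches, and deposited raw read counts per gene (Entrez identifier), 1 column per library and 0 columns of other samples. Symbols were matched for 12690 of 12700 genes. RPM divided these counts by the aligned reads of each library as the study gives them. Pairs of libraries were compared with the likelihood ratio test named in the study's methods, on every gene, since edgeR 4.0.16 needs replicates, and edgeR was fitted to all 4 libraries for H against WT. Other fits used DESeq2 1.42.0, and positions and GC content came from GENCODE vM1. Intervals and SEs cover counting error only, and pools of 7 mice leave the spread between animals unmeasured. Scripts were tested on simulated data. Members, gene lists and tests were chosen with earlier results of these data known. The genes named were taken from every member, Ids, listed myelin genes called within an H or WT pair, the genes with the most reads per list (6 of the myelin list, of which 1 is not reported here, 3 of each other list, where some are given only in its sum) and the 10 genes nearest the members' profile. Alternatives changed the scaling, threshold, test, filter, zero handling, GC correction and libraries. Protein sequences were not used here.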

Additional observations from a re-analysis of the deposited data

Results flagged for a closer look

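Of the genes named by the rule, 3 were called in opposite directions under the same contrast, and these differences were not tested. The study also lists genes with opposite changes in its comparisons, and their share of all genes was not counted here. Ids had a log2 ratio of -1.39 in CxH vs CxWT and 1.24 in MH vs MWT, and its ratio was -1.44 in CxH vs MH but 1.19 in CxWT vs MWT. Gfap, the intermediate filament of astrocytes, had 1.11 and -1.13 in the comparisons by genotype label, and 1.25 and -0.99 in those by area label. C1qa, a complement subunit made by microglia, had 1.42 and -1.02, and 1.35 and -1.09. Tyrobp and Aif1, microglial genes outside the rule that were looked at after their values were seen, did the same, with 1.16 and -1.06 for Aif1 by genotype label and, by area label, 0.86 and -1.36 for Aif1 and 1.35 and -1.51 for Tyrobp. Not all of the microglial list did so. By genotype label Csf1r (0.67 and 0.33), Tmem119 (0.79 and 0.48), Cx3cr1 (0.63 and 0.02) and P2ry12 (0.32 and 0.04) stayed above 0. C1qb (1.26 and -0.68) and C1qc (1.07 and -0.42) changed sign but were called only in CxH vs CxWT. Tmem119, Cx3cr1, P2ry12 and C1qb were also outside the rule. None of the 9 myelin genes changed sign between CxH vs CxWT and MH vs MWT, and the share of all genes that did was not counted.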

How the results depend on the processing

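Of 68 recomputed counts of called members, 57 stayed within 1.5 times the count reported and 11 were lower. Of 270 recomputed log2 ratios of single members, 13 dropped below the threshold, 6 rose above it and 0 of those called changed sign. With a log2 threshold of 1, 2 members were called lower in CxH vs CxWT (5.59% of all genes), 1 in MH vs MWT (6.09%), 1 in MH vs CxWT (4.46%) and 2 in CxH vs MWT (6.72%), and 0 higher in CxWT vs MWT (1.53%). With an assumed coefficient of variation of 0.2, and also with the GC and length correction, 2 were called lower in MH vs MWT (8.53% and 9.40% of all genes) and 0 higher in CxWT vs MWT (2.83% and 1.90%). In the edgeR fit, leaving out 1 library moved the median log2 ratio of the members from -0.57 to between -0.59 and -0.73. Those fits had no area term, and the lone library was assumed to vary like the others. TMM scaling turned the split of all calls from 1457 lower and 1201 higher to 1135 and 1447 in CxH vs CxWT, from 1614 and 1556 to 1386 and 1774 in MH vs MWT, and from 1129 and 814 to 855 and 1013 in MH vs CxWT, where the median of all genes moved from -0.11 to 0.00. Column totals moved the split from 1915 lower and 1980 higher to 2504 and 1609 in CxH vs MWT, from 268 and 690 to 390 and 480 in CxWT vs MWT and from 135 and 309 to 183 and 257 in CxH vs MH, and moved the median of all genes in CxH vs MWT from -0.04 to -0.15. No paired analysis was possible because the labels carry no replicate numbers, other than by area as labelled, which was a term of the edgeR fit (5 members called with it and 5 without). Opalin, with 210 to 279 reads, was the member most limited by depth.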

Other observations

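The genes whose profile over the 4 libraries lay nearest to the mean profile of the 9 myelin genes were genes of other kinds. Distance was the root mean square difference of centred log2 RPM, among the 11010 genes that had 100 or more reads in all 4 libraries. The 10 nearest were Kirrel (0.0127), Alk, Stard5, Nr2f2, Rflnb, Lpin1, Ubfd1, Tmtc2, Apeh and Rora (0.0465), and none was on the myelin list. The members themselves lay between 0.0572 (Mobp) and 0.262 (Ugt8a), against a median of 0.368 over these genes. Kirrel stood at 7.32 RPM in CxH, 7.76 in MH, 13.3 in CxWT and 11.6 in MWT. Nr2f2, a transcription factor, stood at 7.43, 7.71, 13.8 and 12.1 RPM in the same order. A likeness over 4 points is shared by many genes and says nothing of shared function.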
